A study of Rattus norvegicus with 9 samples.

Results

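The genes described here are 6 genes of the response to low oxygen and of glycolysis, chosen by Ensembl ID out of the 32883 rat gene IDs listed: Hif1a (ENSRNOG00000008292), Vegfa (ENSRNOG00000019598), Adm (ENSRNOG00000027030), Slc2a1 (ENSRNOG00000007284), Hk2 (ENSRNOG00000006116) and Ldha (ENSRNOG00000013009). All 6 were listed, and all 6 passed the filter of at least 1 FPKM in at least 3 of the 9 libraries. FPKM is the number of fragments scaled to transcript length and to the mapped fragments of the library. They were measured by RNA sequencing of rat brain tissue in 3 groups of 3 libraries: a sham operation (sham), middle cerebral artery occlusion (MCAO, which models ischaemic stroke by surgery), and the same occlusion with Panax notoginseng (PN), a medicinal plant rich in saponins. The series is about ischaemia followed by reperfusion, and its design text sets the treated group against a control group, taken here to be MCAO. The sources used here do not give strain, age, sex, dose, sampling time, brain region or hemisphere. Libraries are called by their group and the code that ends their title. The labels do not tie libraries to separate animals. A p-value here therefore reflects the spread between these libraries, which may be technical.

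When oxygen falls, the protein encoded by Hif1a escapes degradation, pairs with its partner subunit and switches on genes that carry a hypoxia response element. The control is mainly on the protein, so the Hif1a mRNA need not move with the activity of the factor. Among its well-known targets are the secreted factors Vegfa, which drives vessel growth and leakiness, and Adm, the vasodilator peptide adrenomedullin. Others act on glucose: Slc2a1 encodes the glucose transporter of the blood-brain barrier and of glia, Hk2 a hexokinase that traps glucose as glucose phosphate, and Ldha the subunit of lactate dehydrogenase that favours making lactate from pyruvate. In ischaemic brain these genes are commonly read as markers of oxygen and glucose shortage.

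The upstream windows of 3 of the genes are shown because Slc2a1 and Hk2 were the members whose groups did not overlap in a comparison, and Ldha is a standard example of a gene with hypoxia response elements. Each is the 250 bases before the RefSeq start on GRCr8, 5′ to 3′ on the strand of the gene, and capitals mark the core of the hypoxia response element, ACGTG or GCGTG on either strand. The reverse complements searched were CACGT and CACGC, and CACGTG counts on both strands.
Slc2a1, chr5:138002272-138002521, plus strand: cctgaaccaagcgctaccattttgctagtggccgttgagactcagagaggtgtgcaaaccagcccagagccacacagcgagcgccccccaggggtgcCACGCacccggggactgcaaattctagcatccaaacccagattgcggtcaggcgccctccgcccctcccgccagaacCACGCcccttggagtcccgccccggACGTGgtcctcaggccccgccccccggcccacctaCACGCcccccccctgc
Hk2, chr4:116841276-116841525, minus strand: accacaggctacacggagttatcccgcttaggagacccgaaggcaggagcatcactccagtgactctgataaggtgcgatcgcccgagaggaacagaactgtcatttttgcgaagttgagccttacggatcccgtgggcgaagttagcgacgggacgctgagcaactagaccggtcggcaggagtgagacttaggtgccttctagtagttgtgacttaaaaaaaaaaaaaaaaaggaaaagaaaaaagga
Ldha, chr1:106507842-106508091, plus strand: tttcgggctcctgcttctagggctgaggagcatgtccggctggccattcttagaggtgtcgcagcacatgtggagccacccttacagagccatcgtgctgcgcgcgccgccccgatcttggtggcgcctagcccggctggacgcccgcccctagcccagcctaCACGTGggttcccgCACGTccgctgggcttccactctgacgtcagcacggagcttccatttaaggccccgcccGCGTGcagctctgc

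The Slc2a1 window held 4 matches, the Ldha window 4 and the Hk2 window 0. All 6 symbols had a window in the RefSeq table, Vegfa with 2. The Hif1a window held 3 matches, and the windows of Vegfa and Adm held 0, so that 3 of the 7 windows had a match. Of the 33469 windows of the same length in the table, 36.7% had at least 1 match and 6.21% had 3 or more. The windows of Hif1a, Slc2a1 and Ldha were also rich in G and C, at 73.6%, 68.4% and 66.4% against a median of 51.2%. A match is only a description of these letters, and no match says nothing of elements outside the window.

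In level, Ldha was the most abundant of the 6 genes and Adm the least. Mean FPKM over the 9 libraries was 150.8 for Ldha, 79.8 for Slc2a1, 49.8 for Vegfa, 25.1 for Hif1a, 5.41 for Hk2 and 1.27 for Adm. This order of levels per length held in 9 of 9 libraries from Vegfa down to Adm. Ldha lay above Slc2a1 in 8 libraries, the exception being MCAO 6B, and Slc2a1 lay above Vegfa in 8, the exception being PN 3A. Among the 15051 genes tested, 97.5% had a lower mean log2 level than Ldha and 6.97% a lower one than Adm. Hk2 varied most across libraries in relative terms, with 9.58 times as much in the highest as in the lowest library, followed by Adm with 5.14 times. Ldha and Hif1a varied least, with 1.71 and 1.81 times.

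**Figure D1:**
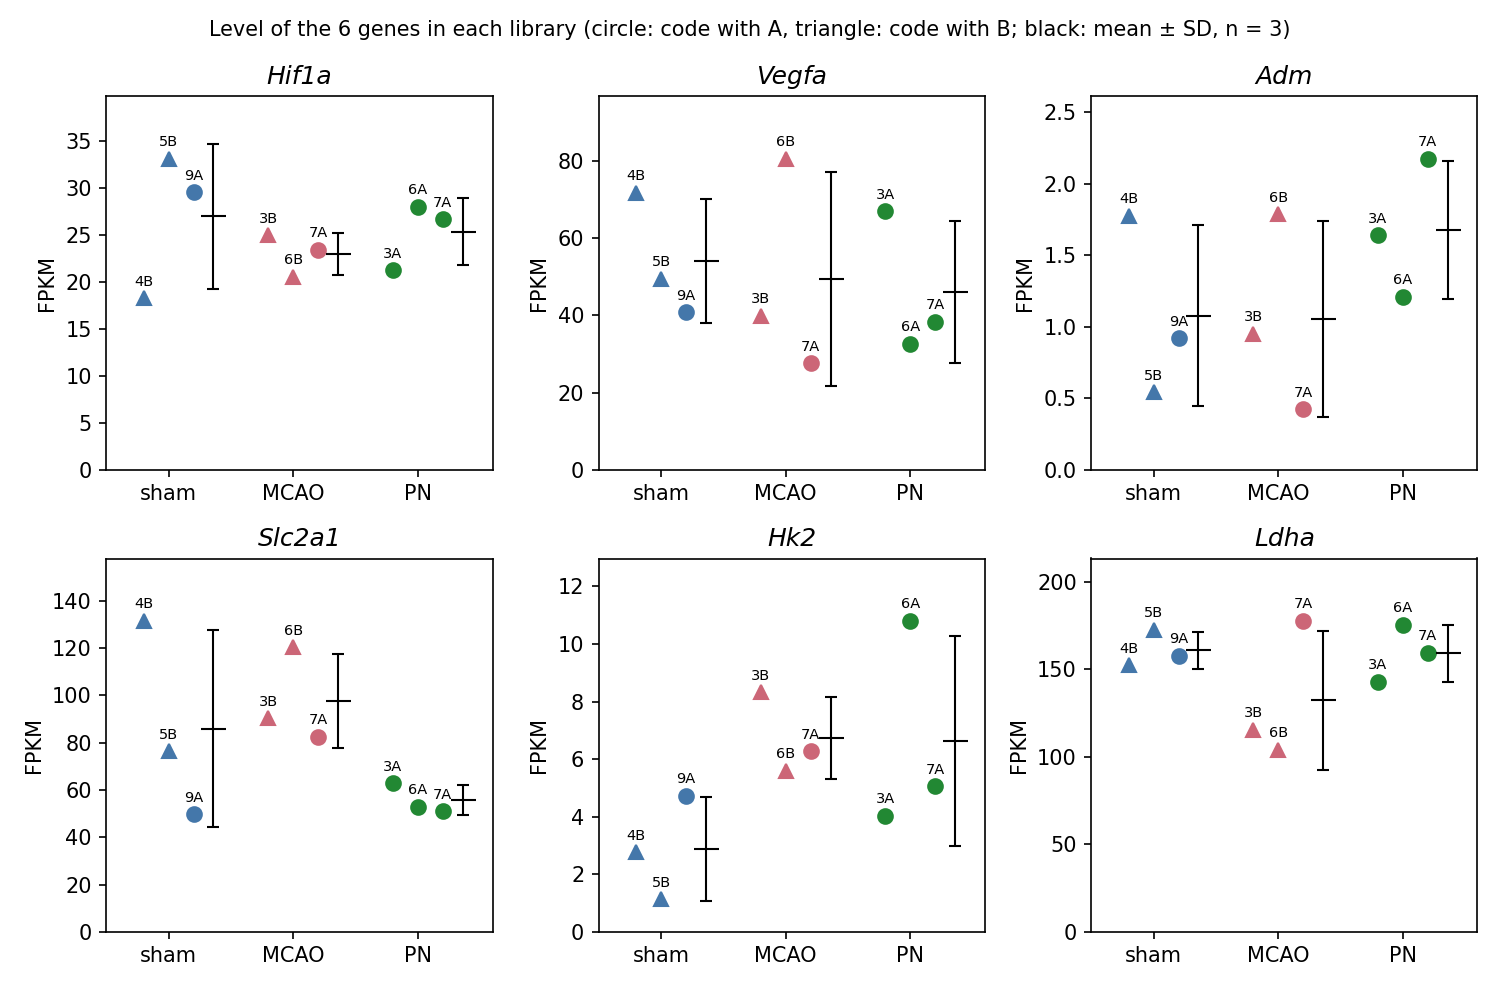
FPKM (linear axes from 0) of the 6 genes in each library of sham, MCAO and PN; circles are libraries whose code has the letter A, triangles those with B, and black bars give the mean ± SD (n = 3). The 3 MCAO libraries lie above the 3 sham libraries for Hk2, the 3 PN libraries lie below the 3 MCAO libraries for Slc2a1, and in every other pair of groups the ranges overlap.

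The libraries set limits on what follows. Only 2 of the 9 libraries correlated best with one of their own group over the genes tested. The relative depth, read from the steps of low values, ran from 1 in MCAO 3B to 1.33 in PN 7A, and the absolute number of reads is unknown, so no counting interval is given for Adm. The file pairs IDs with no symbols, so markers of brain cell types and the other genes of the pathway were not analysed here. In bulk tissue, fewer cells of a type and less RNA per cell cannot be told apart.

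The first comparison, MCAO against sham, asks what the occlusion changed. None of the 6 genes passed the test, where 1 of 15051 genes (0.00664%) did (limma on log2(FPKM + 1), Benjamini-Hochberg adjusted p under 0.05). Hk2 was the only one of the 6 whose groups did not overlap: it was at 6.73 ± 1.42 FPKM in MCAO and 2.87 ± 1.80 FPKM in sham (SD, n = 3 each), 2.34 times as much. Over all genes tested, 19.6% did not overlap between MCAO and sham, and in 8.59% every MCAO value exceeded every sham value. Hif1a, Vegfa, Adm and Ldha had lower means in MCAO and Slc2a1 a higher one, all with overlapping ranges. The median log2 difference of the 6 genes was -0.11, against -0.01 over all genes tested.

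In sham 4B, 5B and 9A, Hk2 stood at 2.77, 1.13 and 4.72 FPKM, and in MCAO 3B, 6B and 7A it stood at 8.32, 5.59 and 6.27 FPKM. Sham 9A came closest to the MCAO libraries, and sham 5B had the lowest value of all. On the log2(FPKM + 1) scale the difference was 1.09 with a standard error of 0.41 and a 95% interval of 0.17 to 2.01. It ranked 908 of 15051 by p (limma, unadjusted p = 0.0246, adjusted p = 0.406), and the exact permutation test gave its smallest possible value (p = 0.1, two-sided). No other member had an unadjusted p under 0.05 here. Genes at that level and higher in MCAO made up 4.87% of those tested, and 11.1% in both directions. Leaving out sham 5B lowered the difference to 0.72 (limma, adjusted p = 0.692). Among libraries with the letter B in the code, the MCAO values of 8.32 and 5.59 FPKM lay above the sham values of 2.77 and 1.13 FPKM. Among those with A, MCAO 7A at 6.27 FPKM lay above sham 9A at 4.72 FPKM. This placing follows from groups that do not overlap and is no check of the letter.

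Ldha showed the opposite placing in part of the MCAO group. In sham 4B, 5B and 9A, its level was 152.4, 172.4 and 157.5 FPKM, and in MCAO 3B, 6B and 7A it stood at 115.6, 103.9 and 177.7 FPKM. MCAO 3B and 6B were the lowest of all 9 libraries, and MCAO 7A was the highest. The log2 difference was -0.32 (standard error 0.21), which did not pass (limma, adjusted p = 0.589). Its 95% interval of -0.79 to 0.16 leaves out a 2-fold change in either direction. Without MCAO 7A the difference was -0.55 (limma, adjusted p = 0.379), and without MCAO 6B it was -0.16 (limma, adjusted p = 0.824).

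In sham 4B, 5B and 9A, Hif1a stood at 18.3, 33.1 and 29.5 FPKM, and in MCAO 3B, 6B and 7A it stood at 24.9, 20.5 and 23.4 FPKM. All MCAO values fell within the sham range, which held both the lowest and the highest of the 9. The log2 difference was -0.19 with a 95% interval of -0.69 to 0.32 (limma, adjusted p = 0.771), which leaves out a 2-fold change in either direction. Without sham 4B it was -0.43 (limma, adjusted p = 0.543), and without sham 5B it was -0.022 (limma, adjusted p = 0.980).

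The secreted factors spread widely within both groups. In sham 4B, 5B and 9A, Vegfa stood at 71.8, 49.5 and 40.8 FPKM, and in MCAO 3B, 6B and 7A it stood at 39.9, 80.5 and 27.6 FPKM. The MCAO group held the highest and the lowest library of all 9. MCAO minus sham was -0.23 on the log2 scale with a 95% interval of -1.13 to 0.68 (limma, adjusted p = 0.842).

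In sham 4B, 5B and 9A, Adm stood at 1.78, 0.543 and 0.918 FPKM, and in MCAO 3B, 6B and 7A it stood at 0.953, 1.79 and 0.423 FPKM. Sham 4B and MCAO 6B stood alike, and the other libraries of both groups were below 1 FPKM. MCAO minus sham was -0.03 on the log2 scale with a 95% interval of -0.76 to 0.70 (limma, adjusted p = 0.983). At such levels the pseudocount of 1 shrinks differences.

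In sham 4B, 5B and 9A, Slc2a1 stood at 131.6, 76.5 and 49.8 FPKM, and in MCAO 3B, 6B and 7A it stood at 90.3, 120.3 and 82.6 FPKM. Sham held the highest and the lowest of the 9 libraries, and all MCAO values fell between them. The log2 difference was 0.28 with a 95% interval of -0.43 to 0.98 (limma, adjusted p = 0.751).

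The second comparison, PN against MCAO, sets the occlusion with Panax notoginseng beside the occlusion without it. The labels do not say whether the treatment came before or after the occlusion. None of the 6 genes passed, where 1 of 15051 genes (0.00664%) did (limma, adjusted p under 0.05). Slc2a1 was the only one of the 6 whose groups did not overlap: its mean was 55.6 ± 6.34 FPKM in PN, against 97.8 ± 19.9 FPKM in MCAO (SD, n = 3 each), which is 1.76 times the PN mean. Over all genes tested, 20.3% did not overlap between PN and MCAO, and in 6.69% every PN value was under every MCAO value. Hif1a, Adm and Ldha had higher means in PN and Vegfa and Hk2 lower ones, with overlapping ranges. The median log2 difference of the 6 genes was 0.05, against 0.07 over all genes tested.

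In PN 3A, 6A and 7A, Slc2a1 stood at 62.8, 52.9 and 51.0 FPKM, against 82.6 to 120.3 FPKM in MCAO. The PN libraries were close to each other, and the nearest MCAO library was 7A. On the log2(FPKM + 1) scale PN minus MCAO was -0.79 with a standard error of 0.31 and a 95% interval of -1.49 to -0.09. It ranked 1365 of 15051 by p (limma, unadjusted p = 0.0313, adjusted p = 0.345), and the exact permutation test gave its smallest possible value (p = 0.1, two-sided). No other member had an unadjusted p under 0.05. Genes at that level and lower in PN made up 4.52% of those tested, and 13.2% in both directions. Leaving out 1 library in turn, the Slc2a1 difference ran from -0.90 without MCAO 7A to -0.63 without MCAO 6B. Its unadjusted p was under 0.05 in 15 of the 20 alternatives run (limma), several of which must return the same difference. The unadjusted p was above 0.05 without MCAO 3B, MCAO 6B, PN 6A or PN 7A. With the letter of the code as a covariate it was also above (limma, unadjusted p = 0.287).

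The letter of the sample code moved with Slc2a1. All 3 PN libraries have the letter A, as do 1 MCAO and 1 sham library, and what the letter marks is not known. Slc2a1 was at 59.8 ± 13.7 FPKM over the 5 A libraries and at 104.7 ± 25.6 FPKM over the 4 B libraries (SD). With the letter as a covariate the difference between PN and MCAO was -0.35 (limma, adjusted p = 0.663). Within the A libraries, MCAO 7A at 82.6 FPKM lay above the PN libraries at 51.0 to 62.8 FPKM, and sham 9A at 49.8 FPKM lay below them. The place of MCAO 7A follows from groups that do not overlap and is no check of the letter. The PN group has no B library, so no B value can be compared, and the part of the letter in the result was not tested further.

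In PN 3A, 6A and 7A, Hk2 stood at 4.03, 10.8 and 5.05 FPKM, against 5.59 to 8.32 FPKM in MCAO. PN 6A was the highest of the 9 libraries, and the other PN libraries lay below the MCAO range. The mean was 6.63 ± 3.65 FPKM (SD, n = 3), and the log2 difference from MCAO was -0.10 with a 95% interval of -1.02 to 0.82 (limma, adjusted p = 0.931). On the log2(FPKM + 1) scale the interval reaches a near 2-fold difference on both sides of 0, so no direction can be given. The pseudocount of 1 shrinks differences somewhat at this level: with 0.1 the difference was -0.13 (limma, adjusted p = 0.933). The difference was -0.41 with the letter of the code as a covariate (limma, adjusted p = 0.753).

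In PN 3A, 6A and 7A, Ldha stood at 142.9, 175.3 and 159.3 FPKM, all within the MCAO range of 103.9 to 177.7 FPKM. PN minus MCAO was 0.30 on the log2 scale with a 95% interval of -0.17 to 0.77 (limma, adjusted p = 0.555). It was 0.53 without MCAO 7A, 0.15 without MCAO 6B and 0.082 with the letter of the code as a covariate (limma, adjusted p = 0.326, 0.838 and 0.906). Hif1a was at 21.2, 28.0 and 26.7 FPKM in the same PN libraries, with a log2 difference of 0.13 and a 95% interval of -0.38 to 0.64 (limma, adjusted p = 0.833). That difference ran from 0.055 to 0.25 with 1 library left out in turn and was 0.030 with the letter as a covariate. For both genes the 95% intervals over all 9 libraries leave out a 2-fold change in either direction.

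In PN 3A, 6A and 7A, Vegfa stood at 66.9, 32.6 and 38.4 FPKM. PN 3A stood apart from the other PN libraries, as MCAO 6B did in its group. PN minus MCAO was -0.03 on the log2 scale with a 95% interval of -0.93 to 0.88 (limma, adjusted p = 0.984).

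In PN 3A, 6A and 7A, Adm stood at 1.64, 1.21 and 2.17 FPKM. The PN libraries all exceeded 1 FPKM, which only 1 MCAO and 1 sham library did, but the ranges overlapped. Adm thus passed the filter of 1 FPKM in 3 libraries only through the PN group, and this count is not a test of PN. The mean was 1.68 ± 0.483 FPKM in PN and 1.05 ± 0.688 FPKM in MCAO (SD, n = 3 each), and the log2 difference was 0.42 with a 95% interval of -0.31 to 1.15 (limma, adjusted p = 0.587). With a pseudocount of 0.1 the difference was 0.77 (limma, adjusted p = 0.586), without MCAO 7A it was 0.18 (limma, adjusted p = 0.865), and without MCAO 6B it was 0.67 (limma, adjusted p = 0.662). With the letter of the code as a covariate it was 0.69 (limma, adjusted p = 0.585).

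**Figure D2:**
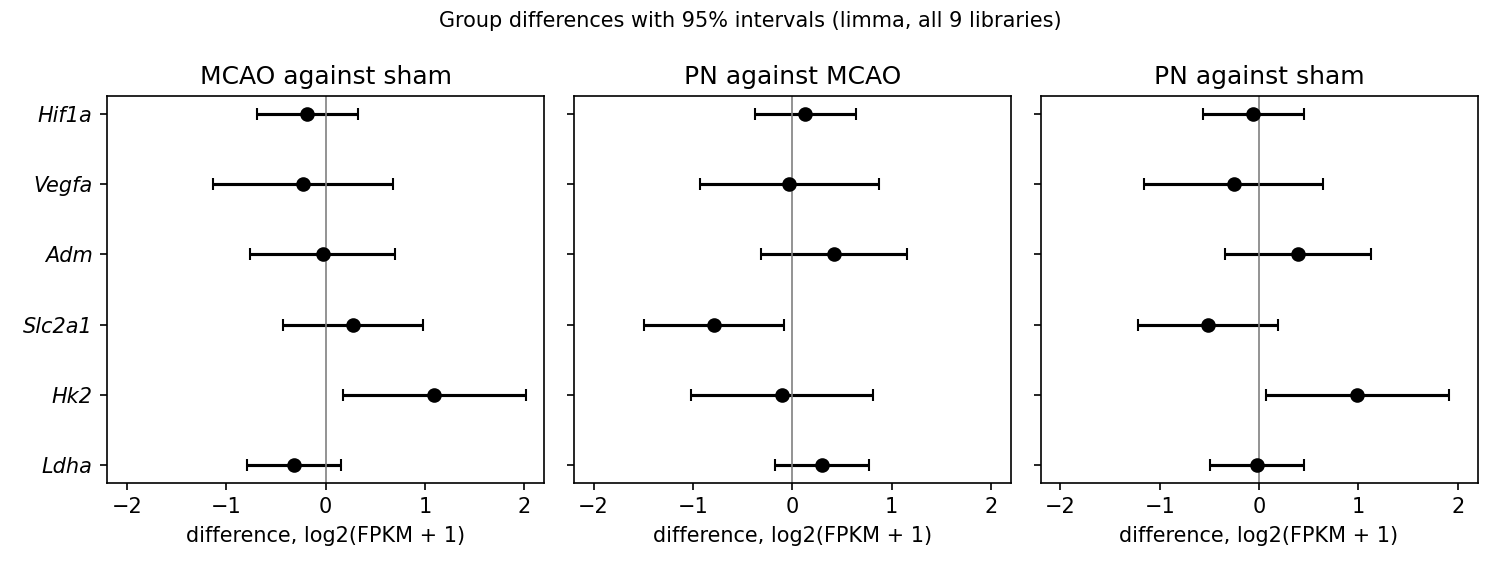
Differences between group means on the log2(FPKM + 1) scale (points) with 95% intervals (bars) from the limma fit of all 9 libraries, for the 3 comparisons of the groups. The intervals of Hk2 against sham (1.09 for MCAO, 0.99 for PN) and of Slc2a1 in PN against MCAO (-0.79) lie to one side of 0, and none of the 18 differences passed after adjustment over all genes.

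The last comparison sets the treated occlusion (PN) beside sham. None of the 6 genes passed, where 3 of 15051 genes (0.0199%) did (limma, adjusted p under 0.05). No member had groups that did not overlap, against 8.71% of all genes tested. This comparison shares its sham libraries with the first and its PN libraries with the second. Hk2 had the largest log2 difference of the 6, at 0.99 with a standard error of 0.41 and a 95% interval of 0.07 to 1.91 (limma, unadjusted p = 0.0376, adjusted p = 0.974). Its mean was 2.31 times that of sham, and 2 of the 3 PN libraries lay above every sham library; PN 3A at 4.03 FPKM was below sham 9A at 4.72 FPKM. Of all genes, 4.25% had an unadjusted p under 0.05, and 3.4% had one and were higher in PN. Without PN 6A the difference was 0.62 (limma, adjusted p = 0.874), and without sham 5B it was 0.61 (limma, adjusted p = 1). It was 0.69 with the letter of the code as a covariate (limma, unadjusted p = 0.205, adjusted p = 0.975).

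For Slc2a1 the PN libraries at 51.0 to 62.8 FPKM fell inside the sham range of 49.8 to 131.6 FPKM. PN minus sham was -0.51 on the log2 scale with a 95% interval of -1.22 to 0.19 (limma, adjusted p = 0.974). With the letter of the code as a covariate it was -0.07, without sham 4B it was -0.15, and without sham 9A it was -0.85 (limma, adjusted p = 0.991, 0.876 and 0.794). Ldha had nearly equal means, 159.2 ± 16.2 FPKM in PN (SD, n = 3) and 160.8 ± 10.4 FPKM in sham (SD, n = 3), with a 95% interval of -0.49 to 0.45. The log2 differences of Hif1a, Vegfa and Adm were -0.06, -0.26 and 0.39, and none passed (limma, adjusted p = 0.991, 0.985 and 0.974).

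In the order of group means, sham was highest for Hif1a, Vegfa and Ldha, MCAO for Slc2a1 and Hk2, and PN for Adm. Neighbours in this order had overlapping ranges in all 6 genes. The groups that did not overlap, MCAO and sham for Hk2 and MCAO and PN for Slc2a1, stood at the ends of their order. For Hk2 the order was MCAO, PN and sham, with PN overlapping both. For Slc2a1 the order was MCAO, sham and PN, with sham overlapping both.

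The 6 genes did not vary as one block across the libraries. Of the 15 pairs, 5 had a positive and 10 a negative Pearson r of log2(FPKM + 1), from -0.68 to 0.57 with a median of -0.22. No pair passed after Benjamini-Hochberg adjustment over the 15 (exact permutation, two-sided), while 1 pair by Pearson r and 2 by Spearman rho had an unadjusted p under 0.05. The points share the sham, MCAO and PN groups, and the r of values centred on group means is given as a description.

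The pair with the strongest r was Hif1a and Slc2a1, the regulator and the transporter, with opposite placing. Pearson r was -0.68 over the 9 libraries (exact permutation p = 0.0481, adjusted 0.339) and Spearman rho was -0.72 (exact permutation p = 0.0369, adjusted 0.276). Without sham 4B and 5B, the libraries farthest from the median of Hif1a, r was -0.75, and on values centred on group means it was -0.80. With 1 library left out in turn it ran from -0.84 without sham 5B to -0.51 without sham 4B, and it was -0.53 after scaling by the median of ratios. Of all genes tested, 3.62% had a lower r with Hif1a.

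Vegfa and Ldha also ran opposite to each other. Spearman rho was -0.75 (exact permutation p = 0.0255, adjusted 0.276) and Pearson r was -0.58 (exact permutation p = 0.102, adjusted 0.339). Centred on group means r was -0.81, and without sham 4B and MCAO 6B, the libraries farthest from the median of Vegfa, it was -0.37.

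Vegfa ran with Slc2a1 and with Adm, its fellow secreted factor, without passing the test. Pearson r with Slc2a1 was 0.57 (exact permutation p = 0.112, adjusted 0.339) and Spearman rho 0.47 (exact permutation p = 0.213, adjusted 0.398). Without sham 4B and MCAO 6B r was -0.06, so the relation was not seen in the remaining libraries. Leaving out the farthest libraries also narrows the range of Vegfa. Centred on group means r with Slc2a1 was 0.73. Pearson r with Adm was 0.56 (exact permutation p = 0.118, adjusted 0.339) and Spearman rho 0.43 (exact permutation p = 0.25, adjusted 0.404). Without the same libraries r with Adm was 0.35, and centred on group means it was 0.74. Hk2 had no r beyond 0.46 in size with any of the other genes.

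**Figure D3:**
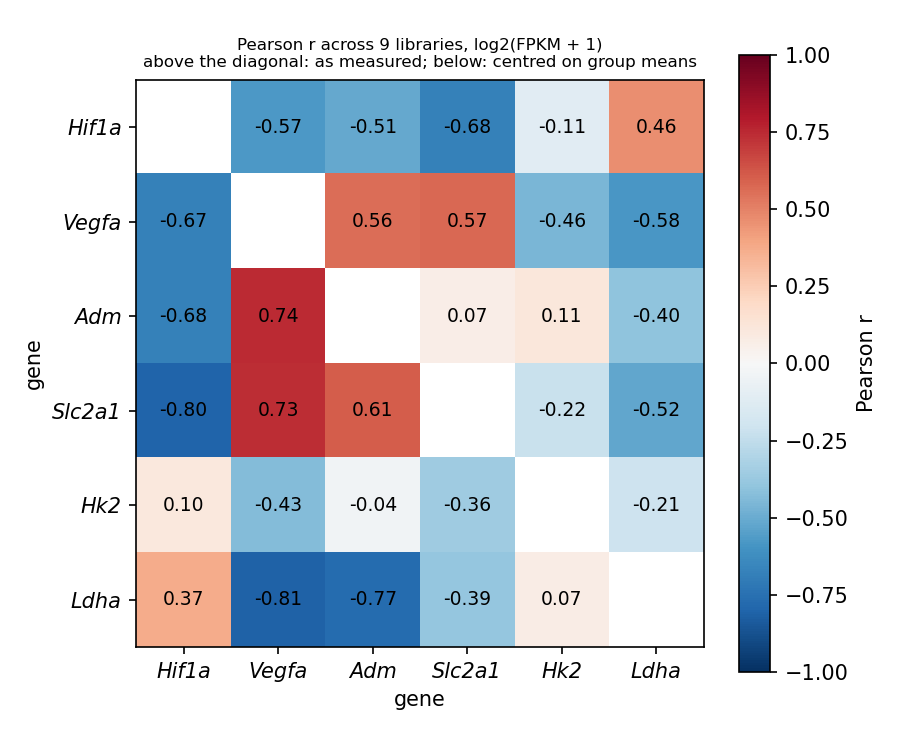
Pearson r between each pair of the 6 genes across the 9 libraries on the log2(FPKM + 1) scale, as measured above the diagonal and centred on group means below it. Vegfa, Adm and Slc2a1 have positive r with each other, though only 0.07 for Adm and Slc2a1 as measured. They have negative r with Hif1a, the lowest being -0.68 for Hif1a and Slc2a1 as measured.

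For Vegfa and Hif1a, 1 library from each group stood at opposite ends. MCAO 6B, sham 4B and PN 3A were the 3 highest libraries for Vegfa, at 80.5, 71.8 and 66.9 FPKM, and the 3 lowest for Hif1a, at 20.5, 18.3 and 21.2 FPKM. They ranked 2, 3 and 4 for Adm 9, 6 and 7 for Ldha, 2, 1 and 6 for Slc2a1, and 4, 8 and 7 for Hk2. At the other end, MCAO 7A was lowest for Vegfa and Adm and highest for Ldha. These libraries were singled out after their values were seen, and the placing cuts across the groups of the study.

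**Figure D4:**
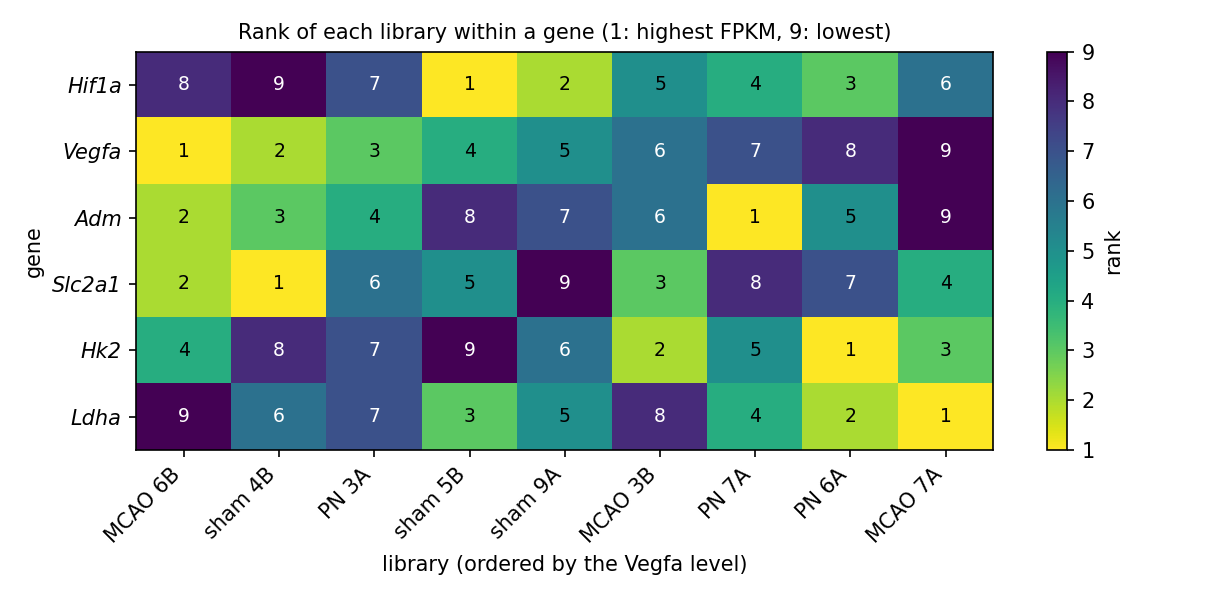
Rank of each library within each gene by FPKM (1 is the highest, 9 the lowest), with libraries ordered by their Vegfa level. The 3 libraries with the most Vegfa, 1 from each group, are ranks 7 to 9 for Hif1a.

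The spread within groups differed between the genes. The residual SD of log2(FPKM + 1) was 0.59 for Vegfa and 0.58 for Hk2, 0.44 for Slc2a1, 0.40 for Adm, 0.29 for Hif1a and 0.26 for Ldha. Of the 500 genes nearest to each in level, 95.2% had a smaller residual SD than Vegfa, 82.2% than Hk2 and 38.2% than Ldha. Vegfa was thus among the more variable genes of its level, and Ldha was not.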

How the data were processed

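The authors deposited 1 table of FPKM values, per the file headers, with 9 sample columns and 32883 gene IDs. Without giving roles, the submitters' processing notes list StringTie 1.3.1, HISAT2, Bowtie2 2.2.8 and fastp 0.18.0; genome build, annotation and strandedness: not given in the sources used here. Hif1a, Vegfa and Slc2a1 are among 4792 rows with over 6 decimals, which no source explains. Columns were matched by code. The code 7A ends 2 titles, so those columns were matched by the start of their names. This start is not constant within groups: the columns of PN 3A and sham 9A start otherwise than those of their group mates. Within PN, the 7A column shares its start with 6A only. What the start marks is not known, and its part in the results was not tested. The rule that chose the members supplied their symbols; the RefSeq table (GRCr8) pairs 0 of the file's IDs with one, so the pairing was not checked and no other list was applied.

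The 15051 genes that reached 1 FPKM in 3 or more libraries entered 1 limma 3.58.1 fit (R 4.3.3) of log2(FPKM + 1) with a mean-variance trend over all 9 libraries, two-sided, adjusted over all genes (threshold 0.05), after a check on simulated data. Exact permutation tests used Python 3.11.15 and scipy 1.17.1. The 6 members are named whole, with the 2 IDs most like their mean. Alternatives are in the closing section. Members and lists were chosen with earlier results of these data known. FPKM keeps no read number, so depth is known only relative to MCAO 3B.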

Additional observations from a re-analysis of the deposited data

How the results depend on the processing

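None of the 18 differences (6 genes in 3 comparisons) passed the adjusted threshold under any alternative run, the lowest adjusted p being 0.0761 for Slc2a1 in PN against MCAO with array weights (limma). Of 345 values under the alternatives, 327 kept the direction and 18 did not, and 10 of the 18 differences never turned. Several alternatives must return the main difference, such as another filter or leaving out a library of the group not compared. These counts are therefore no measure of stability. Those that turned otherwise than by leaving out a library were Adm in MCAO against sham with array weights (0.087), and Vegfa with the letter of the code as a covariate in PN against MCAO (0.49) and PN against sham (0.26). With 1 library left out in turn, MCAO against sham ran from -0.65 to 0.11 for Vegfa, -0.28 to 0.21 for Adm and -0.056 to 0.64 for Slc2a1. PN against MCAO ran from -0.37 to 0.39 for Vegfa and -0.47 to 0.15 for Hk2, and PN against sham from -0.30 to 0.11 for Hif1a, -0.089 to 0.058 for Ldha, -0.56 to -0.035 for Vegfa and 0.20 to 0.62 for Adm. With the letter as a covariate, PN against sham was -0.16 for Hif1a, 0.67 for Adm and -0.23 for Ldha. The count of all genes passing was 3 with only the 6 libraries compared and 1 to 3 with 1 left out for MCAO against sham. For PN against MCAO it was 4 with no filter, 377 with array weights and 1 to 4 with 1 left out, and for PN against sham 5 with array weights. In a paired fit, with the number of the code as replicate block, 0 genes passed in PN against MCAO. Slc2a1 was at -0.79, which such a fit must leave unchanged (limma, adjusted p = 0.483). Between MCAO and PN libraries of the same number, deviations from group means correlated at 0.06, -0.40 and -0.16. Between those of different numbers they correlated at -0.31 to 0.45. Deviations within a group sum to 0, so these values cannot settle a pairing, and none was assumed. Adm has no value with a minimum of 5 FPKM. The cause of these shifts was not tested.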

Other observations

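The letter of the sample code was also compared over the 6 genes, with the groups ignored, as a description. B libraries were higher than A libraries by 0.79 on the log2 scale for Slc2a1 and by 0.55 for Vegfa, and Hk2 was at -0.54. Of all genes tested, 3.04%, 8.42% and 9.06% had a larger difference in size. Hif1a, Ldha and Adm were at -0.11, -0.28 and 0.00337. MCAO and sham each hold 2 B libraries and 1 A library, so this split touches PN against the other groups most.

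Among all other genes tested, ENSRNOG00000050258 (r = 0.95) and ENSRNOG00000024635 (r = 0.90) had the highest Pearson r across the 9 libraries with the mean of the 6 genes' standardized values. Being the highest of the genes tested, such values are large by selection. ENSRNOG00000050258 ran from 16.1 FPKM in MCAO 7A to 22.7 FPKM in sham 4B, and ENSRNOG00000024635 from 4.68 FPKM in MCAO 7A to 6.57 FPKM in sham 4B.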
